A study of Mus musculus with 2 samples.

Results

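Cholesterol genes were followed by total RNA sequencing of left cerebral cortex in 2 female mice. They were 32 of the 55536 annotated genes, chosen as a list of named symbols and grouped by role into 17 genes of synthesis, 7 of regulation and 8 of transport and turnover. The mice were B6CASTF1/J, a cross of C57BL/6J and CAST/EiJ, 36 days old, and the labels give no treatment. The labels give each mouse 1 library and place both in 1 group, so the design implies a description of levels and a comparison of the mice, called replicate 1 and replicate 2 here. Each library was made from 300 ng of RNA with synthetic spike-in RNAs added, and held 29417200 expected counts in replicate 1 and 35188800 in replicate 2, rounded to the nearest 100. With 1 library per mouse there was no test: no p-value was computed, differences between the mice have no replicate check, and each ± is the SD over the 2 mice. Bulk tissue holds many cell types, and fewer cells of a type cannot be told apart from less RNA per cell.

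Brain cholesterol is made locally, because lipoproteins of the blood do not cross the blood-brain barrier in useful amounts. Synthesis runs from acetyl-CoA through mevalonate, farnesyl pyrophosphate, squalene and lanosterol to cholesterol. When sterol in the endoplasmic reticulum is low, SCAP carries SREBP proteins to the Golgi, where cleavage frees a transcription factor that binds promoters of synthesis genes. INSIG proteins hold SCAP back when sterol is high, and the liver X receptors switch on export genes when oxysterols accumulate. Astrocytes export cholesterol on particles that carry apolipoprotein E, neurons take these up through receptors such as LRP1, and neurons clear cholesterol by converting it to 24S-hydroxycholesterol with CYP46A1.

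Promoter sequence is shown for Hmgcs1, the most abundant synthesis gene, and for Insig1, Mvd and Mvk, the 3 genes with the largest ratio between the mice. A window from RefSeq (build GRCm38.p6) reached from 250 bases before to 50 bases after each annotated start site and was present for 27 of the 32 genes. Fdps, Fdft1, Sqle, Abcg1 and Npc1 were not matched to one. The start site lay within 100 bases of the start of the gene's most abundant transcript for 20 of the 27. The 250 bases before the start site are printed 5′ to 3′ on the strand of the gene for Hmgcs1 (chr13:119690101-119690350, plus strand), Mvk (chr5:114444019-114444268, plus strand), Mvd (chr8:122443423-122443672, minus strand) and Insig1 (chr5:28071162-28071411, plus strand). Capitals mark exact matches, on either strand, to TCACNCCAC (a sterol regulatory element core), CCAAT (the box bound by NF-Y) and GGGCGG (the GC box bound by SP1). ATTGG and CCGCCC are CCAAT and GGGCGG read on the opposite strand.
Hmgcs1: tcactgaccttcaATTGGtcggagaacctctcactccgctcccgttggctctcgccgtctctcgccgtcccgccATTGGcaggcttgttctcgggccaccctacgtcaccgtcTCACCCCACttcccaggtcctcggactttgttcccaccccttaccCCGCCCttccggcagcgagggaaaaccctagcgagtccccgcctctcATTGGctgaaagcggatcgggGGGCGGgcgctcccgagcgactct
Mvk: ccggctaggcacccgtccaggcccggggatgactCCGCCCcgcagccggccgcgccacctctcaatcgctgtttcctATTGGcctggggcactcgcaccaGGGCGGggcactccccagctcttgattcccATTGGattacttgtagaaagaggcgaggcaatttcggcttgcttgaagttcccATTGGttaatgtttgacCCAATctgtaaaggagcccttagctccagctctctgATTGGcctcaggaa
Mvd: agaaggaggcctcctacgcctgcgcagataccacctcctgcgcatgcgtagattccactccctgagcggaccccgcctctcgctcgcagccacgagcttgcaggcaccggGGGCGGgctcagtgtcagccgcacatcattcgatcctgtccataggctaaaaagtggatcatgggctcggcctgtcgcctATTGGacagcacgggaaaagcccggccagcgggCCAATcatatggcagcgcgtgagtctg
Insig1: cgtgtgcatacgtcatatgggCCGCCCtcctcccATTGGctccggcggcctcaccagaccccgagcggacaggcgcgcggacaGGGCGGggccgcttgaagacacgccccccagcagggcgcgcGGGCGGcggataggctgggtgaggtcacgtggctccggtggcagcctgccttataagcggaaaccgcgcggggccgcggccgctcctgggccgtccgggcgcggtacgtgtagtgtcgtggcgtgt

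Most synthesis windows held a CCAAT box. It occurred in 13 of 14 synthesis windows, in 2 of 7 regulation windows and in 3 of 6 transport and turnover windows, against 37.4% of all 32851 windows in the RefSeq table and 38.3% of the windows of the 9942 expressed genes that have one. Over the whole window of 300 bases, Mvk held 5 matches to CCAAT and Hmgcs1 and Nsdhl held 4 each, and no match was found in the Pmvk window. For Pmvk and Dhcr7 the RefSeq start site lay 453 and 588 bases downstream of the start of the leading transcript. Their windows thus lie inside the transcribed gene and do not show the sequence before that start. For Msmo1 it lay 214 bases downstream, so most of its window, with its 3 CCAAT matches, also lies inside. For Ebp it lay at -6338 bases from the start of the leading transcript, a retained-intron form. GGGCGG occurred in 13 of 14 synthesis, 5 of 7 regulation and 5 of 6 transport and turnover windows, against 35.7% of all windows but 67.0% of windows of expressed genes. The Hmgcs1 window was the only one of the 27 with TCACNCCAC, at position -137 from the start site, and 1.24% of all windows held it. The windows of Nr1h2, Nr1h3 and Apoe held none of the 3 motifs. These are letter matches in a fixed window. They describe the sequence and are not measured binding sites, and a window without a match says only that these letters do not occur in it.

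Every one of the 32 genes was expressed, here a TPM (the library's transcripts as shares corrected for gene length) of at least 1 in both mice. The median level was 16.99 ± 0.163 TPM over the synthesis genes, 32.2 ± 3.66 TPM over the regulation genes and 25.1 ± 4.89 TPM over the transport and turnover genes. The 12754 expressed protein-coding genes of the nuclear genome had a median of 15.3 TPM, and 22 of the 32 genes lay above it. Apoe alone took 43.3% of the summed TPM of the 32 genes in replicate 1 and 46.4% in replicate 2. Ordered by mean level, 7 of the 31 pairs of neighbouring genes did not overlap between the mice, so most steps in the order were within the spread of the 2 mice.

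**Figure D1:**
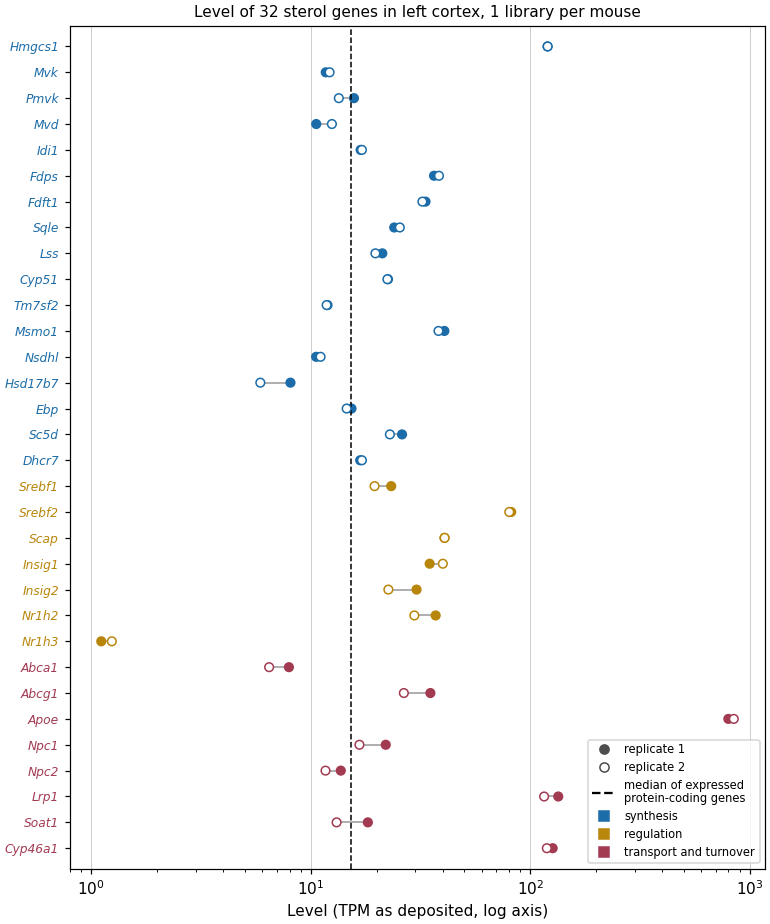
Level of each of the 32 genes in TPM on a log axis, with 1 filled point for replicate 1 and 1 open point for replicate 2, joined by a line, genes coloured by role. The dashed line is the median of expressed protein-coding genes, 15.3 TPM; Apoe stands alone at the top and Nr1h3 at the bottom.

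In the mevalonate steps, a single gene stood far above the others. Hmgcs1 (chr13:119690379-119708260), the cytosolic HMG-CoA synthase that opens the pathway, was at 119.9 TPM in replicate 1 and 120.01 TPM in replicate 2, above 94.7% of expressed genes. The kinases and the decarboxylase that follow were far lower. Mvk, mevalonate kinase, was at 11.7 and 12.2 TPM. Pmvk, phosphomevalonate kinase, was at 15.7 and 13.4 TPM. Mvd, the diphosphomevalonate decarboxylase, was at 10.6 and 12.5 TPM. The isomerase and the prenyl synthase that build farnesyl pyrophosphate from these units came next. Idi1 was at 16.9 and 17.1 TPM, and Fdps, farnesyl pyrophosphate synthase, was at 36.5 and 38.4 TPM.

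The steps from squalene to lanosterol lay close together. Fdft1, squalene synthase and the first step committed to sterols, was at 33.3 and 32.3 TPM. Sqle, squalene epoxidase, a rate-limiting oxygen-dependent step, was at 24.0 and 25.5 TPM. Lss, which folds the epoxide into lanosterol, was at 21.2 and 19.7 TPM. Within a mouse, Hmgcs1 stood 4.86 ± 0.199 times as high as Sqle in TPM, and Fdft1 1.33 ± 0.0857 times as high as Sqle, both with little difference between the mice.

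After lanosterol, levels in the first quantification fell into a high group of Msmo1, Sc5d and Cyp51 and a lower group of the other 5 enzymes. Msmo1, which begins the removal of the C4 methyl groups, was the highest at 40.6 and 38.2 TPM. Cyp51, the lanosterol demethylase, was at 22.5 and 22.3 TPM. Sc5d, the desaturase that makes 7-dehydrocholesterol, was at 26.1 and 22.9 TPM. Dhcr7 turns that sterol into cholesterol and is the gene of Smith-Lemli-Opitz syndrome. It was at 16.8 and 17.1 TPM. In a second quantification of the same libraries Dhcr7 was at 32.2 and 34.5 TPM and Cyp51 at 31.7 and 32.8 TPM. The place of Dhcr7 in the lower group thus holds in the first quantification only. Ebp, the sterol isomerase, was at 15.3 and 14.6 TPM, Tm7sf2, a sterol C14 reductase, at 11.9 and 11.8 TPM, and Nsdhl, the C4 decarboxylating dehydrogenase, at 10.6 and 11.1 TPM. Hsd17b7, the ketoreductase of the same complex, was the lowest synthesis gene at 8.08 and 5.89 TPM. Its counts were 477 and 550, and the length by which its counts were divided was 3257 bases in replicate 1 and 3789 in replicate 2, since that length follows the mix of transcripts assigned to the gene.

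Of the regulators, the SREBP-2 gene was the most abundant. Srebf2 (chr15:82147181-82205379), whose product favours cholesterol synthesis genes, was at 81.9 and 80.2 TPM. Srebf1, whose product favours fatty acid synthesis genes, was at 23.3 and 19.5 TPM. The Srebf2 to Srebf1 ratio was 3.52 in replicate 1 and 4.11 in replicate 2, or 3.82 ± 0.414. Scap, the sterol-sensing escort of both, was at 40.7 TPM in each mouse.

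The INSIG genes, which retain SCAP in the endoplasmic reticulum, lay close together in replicate 1 and farther apart in replicate 2. Insig1 (chr5:28071363-28078662), which is itself a target of SREBP, was at 34.8 TPM in replicate 1 and 40.0 TPM in replicate 2. Insig2, its homologue, was at 30.3 and 22.6 TPM. The Insig1 to Insig2 ratio was 1.15 in replicate 1 and 1.77 in replicate 2, or 1.46 ± 0.441. Of the liver X receptors, Nr1h2 (LXR beta) was at 37.1 and 29.6 TPM. Nr1h3 (LXR alpha) was at 1.11 and 1.24 TPM, from only 35 and 41 counts, the lowest of the 32 genes. Nr1h2 was 28.6 ± 6.71 times as high as Nr1h3, a ratio whose precision the low counts of Nr1h3 limit.

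Transport and turnover held both the highest gene and some of the lowest. Apoe (chr7:19696109-19699188) was at 799 and 846 TPM, above 99.8% of expressed genes. Its neuronal receptor gene Lrp1 was at 134 and 116 TPM. Of the lipid exporters, Abcg1 was at 35.1 and 26.6 TPM and Abca1 at 7.95 and 6.46 TPM. The TPM of most genes was lower in replicate 2, with a median log2 ratio of -0.21 over all genes counted, so TPM alone gives no direction between the mice. Abca1 stood at 0.235 ± 0.0118 of the Abcg1 level. Npc1 and Npc2 hand cholesterol out of the lysosome as a pair. Npc1 was at 21.96 and 16.7 TPM and Npc2 at 13.7 and 11.7 TPM, a ratio of 1.52 ± 0.124.

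The enzymes of turnover differed widely in level. Cyp46a1 (chr12:108334381-108362234), the neuronal cholesterol 24-hydroxylase, was at 127 and 119 TPM, close to Lrp1 and Hmgcs1 and not separated from either by the spread of the mice. In a second quantification of the same libraries Cyp46a1 was at 180.2 and 186 TPM and Lrp1 at 156 and 142 TPM, which do not overlap. Soat1, which esterifies cholesterol for storage, was at 18.2 and 13.1 TPM. The Cyp46a1 to Soat1 ratio was 6.95 in replicate 1 and 9.08 in replicate 2, or 8.01 ± 1.502.

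The 2 quantifications of the same libraries placed the genes in nearly the same order. Across the 32 genes, which share their reads and libraries, Spearman's rho between the mean TPM values was 0.98. The second quantification gave higher TPM for every one of the 32 genes, by a median of 1.53 times, beside 1.57 times over all expressed genes. The factor was smallest for Soat1 at 1.15 and largest for Dhcr7 at 1.97.

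**Figure D2:**
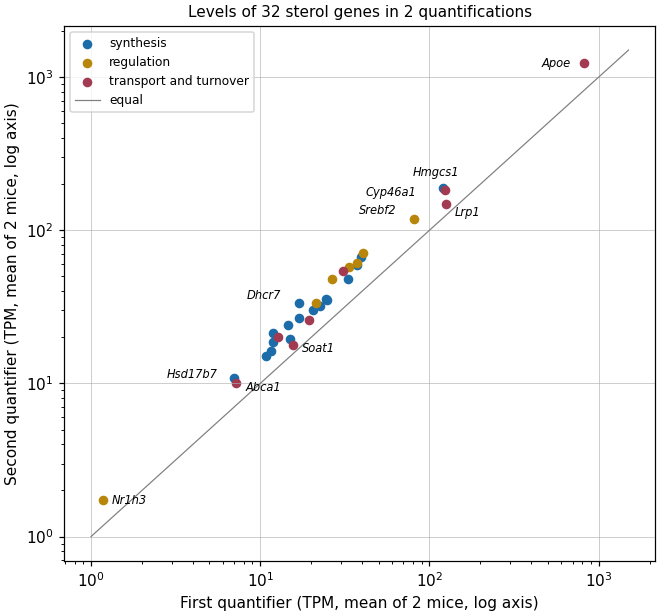
Mean TPM of each of the 32 genes over the 2 mice in the first quantification (horizontal, log axis) and in the second (vertical, log axis), coloured by role, with a line of equal values. All points lie above the line, by 1.15 to 1.97 times.

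The synthesis genes were mostly higher in replicate 2 than other genes were. Among genes averaging 100 counts or more, ratios of replicate 2 over replicate 1 from counts scaled by TMM (a library size that assumes most genes are alike) had a median log2 of 0.21 over the 17 synthesis genes, against 0.04 over all 12615 genes, whose SD was 0.28. All 17 were above 0, as were 58.9% of all genes, and 13 of the 17 were above the median of all genes. The sign against 0 depends on the scaling: with spike-in totals the synthesis median was -0.25 and 1 of 17 was above 0, where 2.31% of all genes were. With TPM as deposited it was -0.0090 and 8 of 17 were above 0, where 15.4% of all genes were. Those scalings moved the median of all genes to -0.42 and -0.21. Spike-ins took 0.349% of counts in replicate 1 and 0.461% in replicate 2. Relative to the median of all genes, the synthesis median was 0.17 higher under both TMM and spike-in totals. A change of library size shifts all genes almost alike, so that match was fixed in advance. Under TPM as deposited the synthesis median was 0.20 higher, and in the second quantification 0.18 higher.

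Within synthesis the median was highest in the early steps. The log2 ratio had a median of 0.30 over the 6 genes up to farnesyl pyrophosphate, 0.22 over the 3 from squalene to lanosterol and 0.13 over the 8 after lanosterol. These groups share 2 libraries and were not tested against each other. Mvd had 328 counts in replicate 1 and 523 in replicate 2, a log2 ratio of 0.48 with a 95% counting interval of 0.28 to 0.68. Mvk had 323 and 468 counts, a ratio of 0.34 with an interval of 0.13 to 0.55. Sqle had 1193 and 1724 counts, a ratio of 0.34 with an interval of 0.23 to 0.45. Fdps was at 0.34 with an interval of 0.20 to 0.47, from counts that the quantifier had divided with other genes. These 4 were at least 25% higher in replicate 2 under TMM; under spike-in totals Mvd was at 0.01 and the other three below 0.

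The remaining synthesis genes did not reach that size. Nsdhl at 0.31, Dhcr7 at 0.28 and Hmgcs1 at 0.26 came nearest, each with a counting interval above 0. Hmgcs1 had 7134 and 9778 counts and the narrowest interval of the group, 0.22 to 0.31. Fdft1, Msmo1, Idi1 and Cyp51 lay between 0.15 and 0.22, with intervals above 0. The intervals of Tm7sf2, Lss, Sc5d, Ebp, Pmvk and Hsd17b7, at 0.11 to 0.01, included 0, so a difference was not detectable at this depth. Intervals cover counting error only, since they are computed from the counts of 1 library per mouse. They hold no variation between mice or between library preparations, and no molecular identifiers are given. Of all 12615 genes, 3719 had an interval above 0, beside 11 of the 17 synthesis genes.

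**Figure D3:**
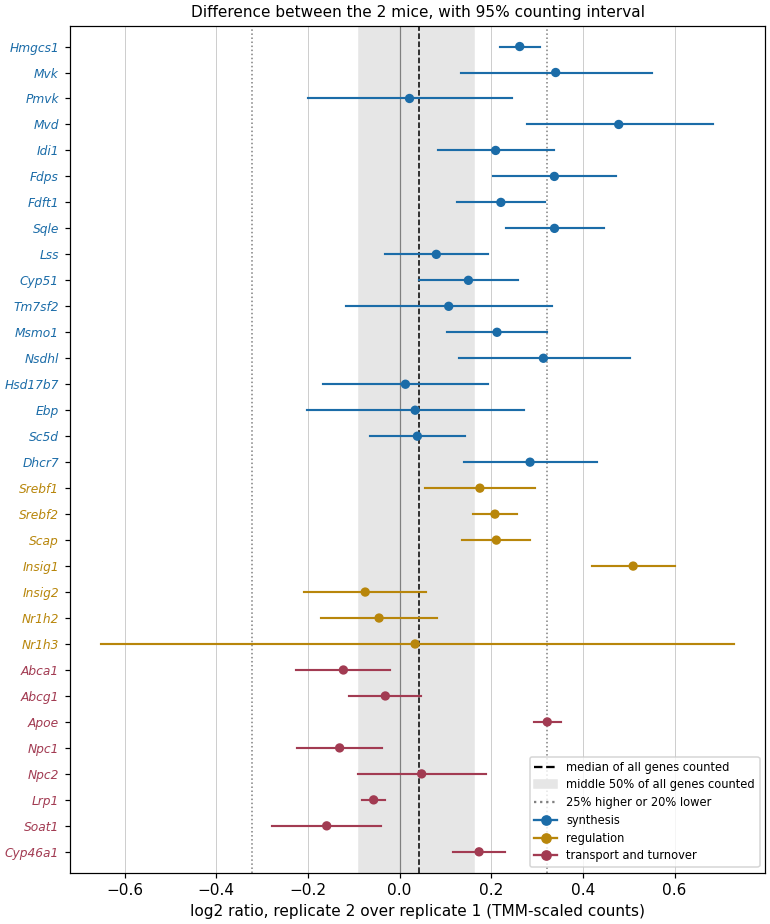
Log2 ratio of replicate 2 over replicate 1 from TMM-scaled counts for each gene (points, coloured by role) with the 95% counting interval (lines). The grey band is the middle 50% of all 12615 genes, the dashed line their median of 0.04 and the dotted lines 25% higher and 20% lower; Insig1 and Mvd lie farthest to the right and Soat1 farthest to the left.

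Insig1 was the gene of the 32 that differed most. It had 1571 counts in replicate 1 and 2557 in replicate 2, a log2 ratio of 0.51 with a counting interval of 0.42 to 0.60, above 98.2% of all genes. It also stayed above 0 under spike-in totals, at 0.04. Insig2, with 884 and 959 counts, was at -0.07 with an interval of -0.21 to 0.06. Scap and Srebf2 were both at 0.21, and Srebf1 was at 0.18, each with an interval above 0. Nr1h2 was at -0.04 with an interval that included 0, and Nr1h3 at 0.03 had too few counts to enter the comparison. The 6 regulation genes counted had a median of 0.19, of -0.27 under spike-in totals and of -0.14 under TPM as deposited. Relative to the median of all genes it was 0.15 higher under TMM and, by construction, under spike-in totals, and 0.06 higher under TPM.

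Of the 8 transport and turnover genes, 3 lay above the median of all genes. Their median log2 ratio was -0.04, with 3 of 8 above 0, beside 58.9% of all genes. In the second quantification the median was 0.00093 and 4 of 8 were above 0, beside 64.2% of all genes. Against the median of all genes the group median was -0.09 under TMM and, by construction, under spike-in totals, and -0.06 under TPM as deposited. Apoe had the highest ratio of them: its 15370 and 21962 counts gave 0.32 with an interval of 0.29 to 0.35, just past 25% higher under TMM and at -0.14 under spike-in totals. Cyp46a1 was at 0.17 with an interval above 0, and Npc2 at 0.05 and Abcg1 at -0.03 had intervals that included 0. Lrp1 at -0.06, Abca1 at -0.12, Npc1 at -0.13 and Soat1 at -0.16 had intervals below 0. Of the 31 genes counted in all 3 groups, 17 had an interval above 0 and 4 below 0. Of all 12615 genes, 3719 had an interval above 0 and 2206 below 0, so an interval that leaves out 0 was common.

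In all, 6 of the 31 genes counted were at least 25% higher in replicate 2 under TMM, where 6.43% of all genes were: Insig1, Mvd, Mvk, Sqle, Fdps and Apoe. None was at least 20% lower, the same fold downward, where 5.92% of all genes were, and none differed 2-fold, where 0.713% did. The share of 6 in 31 is above that background, and was not tested, since each mouse has 1 library. Under spike-in totals 0 of the 31 were higher, where 0.571% of all genes were, and 14 were lower, where 71.7% were. The genes just inside and just outside the limit were Apoe at 0.32 and Nsdhl at 0.31.

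Cell type markers also differed between the mice, but not every one. Cx3cr1 of microglia, for example, had a log2 ratio of -0.0011 with a counting interval of -0.12 to 0.12. All 6 markers each of neurons, astrocytes, oligodendrocytes and microglia had counts in both mice. Astrocyte markers, of the cells that make most Apoe, had a median log2 ratio of 0.14 under TMM with 6 of 6 above 0, and a summed level of 421 TPM in replicate 1 and 392 TPM in replicate 2. Oligodendrocyte markers, of cells that make much sterol for myelin, had a median of -0.09 with 2 of 6 above 0, and a summed level of 2130 and 1606 TPM. Microglial markers had a median of 0.16 with 4 of 6 above 0, and a summed level of 151 and 143 TPM. Neuronal markers had a median of 0.09 with 5 of 6 above 0, and a summed level of 2946 and 2669 TPM. Precursor cell markers had a median of 0.07 with 3 of 4 above 0. For endothelial markers it was -0.05 with 2 of 4 above 0. Beside these, all 12615 genes had a median of 0.04, with 58.9% above 0 and quartiles of -0.0887 and 0.163. The medians of neuronal, astrocyte, microglial, precursor and endothelial markers lay between those quartiles. The oligodendrocyte median, -0.0897, lay just below the lower quartile. Choroid plexus markers had 0 of 3 above 0 and a summed level of 72.7 and 9.82 TPM, nearly all of it Ttr at 70.1 and 8.29 TPM, and Folr1 among them had only 11 and 5 counts. Nuclear noncoding RNAs such as Malat1 had a median of -0.92, with 0 of 4 above 0. The part of these shifts in the sterol gene ratios was not tested.

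Other genes of the pathway, 47 from a list kept apart from the 32, lay at the median of all genes. Of these, 41 were expressed and 39 counted, with a median log2 ratio of 0.05 and 20 of 39 above the median of all genes, and a median 0.0036 above all genes. At least 25% higher under TMM were 2 of the 39, Acat2 and Tmem97, a share near the 6.43% of all genes. None was at least 20% lower, beside 5.92% of all genes. Acat2, cytosolic acetoacetyl-CoA thiolase, had 910 and 1407 counts and a log2 ratio of 0.44. Tmem97, the sigma-2 receptor that binds NPC1, had 220 and 336 counts and a ratio of 0.42. Under 1 TPM were 4 genes: Soat2, which had 0 counts in both mice, Idi2, Apoa1 and Ch25h. Those at or above the median level of the 32 genes numbered 23. They were led by Clu, clusterin, another apolipoprotein of the brain, at 404 and 403 TPM, followed by Abca2 at 82.8 and 70.4 TPM, Gramd1b, a sterol carrier from the plasma membrane, at 76.6 and 59.4 TPM, and Apod at 73.7 and 57.9 TPM. The other 19 had mean levels from 22.1 TPM (Erg28) to 59.0 TPM (Lrpap1). Between them lay, among others, Acat2, Ggps1, Dhdds and Nus1 of the mevalonate pathway and its branches, Mbtps1, Rnf145 and Rxrb of regulation, the lipoprotein receptors Vldlr and Lrp8, and Scarb2, Abcg4, Nceh1, Gramd1a, Osbp and Pltp.

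Transcript tables split each gene among annotated isoforms, 218 for the 32 genes and 2 to 18 per gene. The leading transcript was the same in both mice for 30 of the 32 genes, the exceptions being Lss and Srebf1, and it held at least 50% of the gene's TPM in both mice for 26 and at least 90% for 8. The 2 quantifications named the same leading transcript for 24. No share over all expressed genes is given for these counts of leading transcripts, so they describe the 32 genes only. For a median gene, 9.19% of TPM lay in transcripts not typed protein-coding, beside 9.51% over all expressed protein-coding genes. The share passed 20% in both mice for 8 of the 32 genes, 6 of them also in the second quantification, and 28.2% of all expressed protein-coding genes passed it.

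Lss and Ebp had the highest shares in the first quantification. Lss (chr10:76531588-76557138) had 70.6% of its TPM in replicate 1 and 73.8% in replicate 2 in transcripts not typed protein-coding, and 73.0% in the second quantification. Among them a retained-intron transcript with 22 exons held 18.9% and 18.2%. Ebp (chrX:8185329-8193512) had 50.3% and 56.8%, with a 2-exon retained-intron transcript leading at 37.8% and 38.5% in the mice. By counts in the first quantification, a 5-exon protein-coding transcript held 40.6% and the retained-intron one 38.9%. The second quantification gave a share of 41.3%, and there the 5-exon transcript led at 60.4% and 39.5% of TPM. Among regulators Srebf1 had 42.9% and 34.3% of its TPM but 6.61% of its counts in such transcripts. All of them were typed processed transcript, of 367 to 945 bases, and its 19-exon transcript held 18.1% and 28.9% of TPM. Lrp1 had 32.9% and 37.5% of its TPM in transcripts not typed protein-coding but 2.80% of its counts, since a short transcript weighs more per length than per read. Hmgcs1, Pmvk, Mvd, Sc5d and Apoe had under 1% in both mice, but Mvd had 84.2% in the second quantification.

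**Figure D4:**
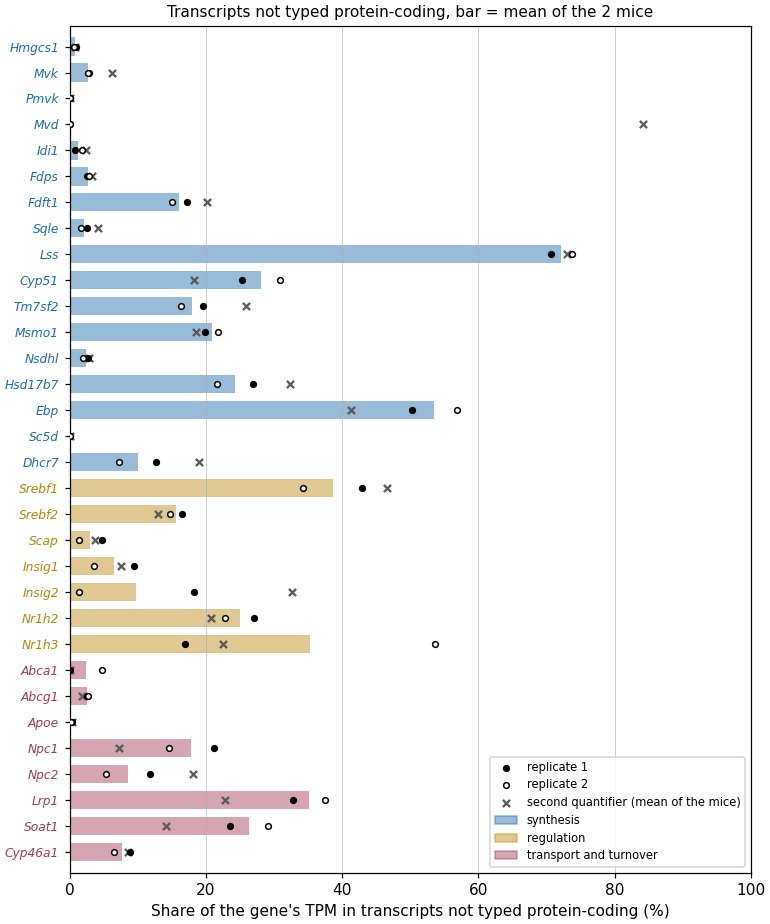
Share of each gene's TPM, in percent, in transcripts not typed protein-coding: bars are the mean of the 2 mice, filled and open points are replicates 1 and 2, and crosses are the mean of the second quantification. Lss is highest, at 70.6% and 73.8%, and Mvd is where the quantifications part, at 0% against 84.2%.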

How the data were processed

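For each of the 2 libraries 3 tables were used. The authors deposited 1 table of genes and 1 of transcripts with an expected count and a TPM for every entry, and a further table of transcripts with an estimated count and TPM from a second quantifier, per the file headers. A percent column in the first of the transcript tables, also as deposited, is the part of a gene's abundance taken by each transcript. Labels give the genome build as mm10, and a deposited note names GENCODE M21 as annotation. For the aligner, the versions and the strand setting the entry is: not given in the sources used here; column names match those of RSEM and kallisto. An expected count can be a divided read, and 28 of the 32 genes had whole counts in both mice. Reads of the CAST/EiJ alleles were quantified against the reference, and any loss was not tested. The labels describe 2 animals but list 1 donor record for both, so the spread is that of 2 mice on the word of the labels.

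Computed here were mean ± SD of TPM, the log2 ratio of replicate 2 over replicate 1 from rounded counts (TMM sizes from edgeR 4.0.16 in R 4.3.3, prior count 2, at least 100 counts on average) and its 95% exact Clopper-Pearson interval. DESeq2 1.42.0 supplied alternative size factors, and Python 3.11.15, numpy 2.4.6, pandas 2.3.3, scipy 1.17.1 and matplotlib 3.10.9 did the rest. Alternatives were 2 further library scalings, TPM ratios, the second quantifier, other prior counts and low-count limits, and each mouse alone. The ratio and interval were tested on simulated data. The genes named are all 32 members and, of 47 other pathway genes, those at or above the members' median level, past the size rule or under 1 TPM, except that a few are not reported here. The members and all gene lists were chosen with earlier results of these data known. Promoter windows are from RefSeq, GRCm38.p6, taking the start nearest the leading transcript. A planned comparison of protein sequences was not made.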

Additional observations from a re-analysis of the deposited data

How the results depend on the processing

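Levels moved most with the denominator. Median TPM of the synthesis, regulation and transport and turnover genes was 30.2, 55.9 and 39.98 in the second quantification, and 38.4, 72.5 and 56.2 when rescaled over nuclear protein-coding genes. Log2 ratios moved with the scaling. Under spike-in totals the medians of the 3 groups were -0.25, -0.27 and -0.51, and under TPM as deposited -0.0090, -0.14 and -0.27, while the transport and turnover median was 0.00093 in the second quantification. Under spike-in totals Mvk was at -0.12, Fdps and Sqle at -0.13 and Apoe at -0.14, with 0 genes at least 25% higher and 14 at least 20% lower, beside 71.7% of all genes lower. Under TPM as deposited these counts were 0, beside 1.90% of all genes, and 6, beside 29.6%. DESeq2 size factors and a prior count of 0.5 left all 32 ratios within counting error of the main value. Relative to the median of all genes, the synthesis median was 0.17 higher under TMM, DESeq2 and spike-in sizes. Those sizes shift all genes almost alike and could not change it. It was 0.20 higher under TPM as deposited and 0.18 higher in the second quantification. Counting protein-coding transcripts alone, an alternative chosen after seeing the data, gave 0.23, 0.21 and -0.03. From expected counts, not divided by length, partner ratios were 6.39 for Srebf2 to Srebf1, 2.22 for Insig1 to Insig2, 0.586 for Abca1 to Abcg1, 2.25 for Npc1 to Npc2, 4.43 for Cyp46a1 to Soat1 and 5.83 for Hmgcs1 to Sqle. In the second quantification they were 0.185 for Abca1 to Abcg1, 1.29 for Npc1 to Npc2, 10.46 for Cyp46a1 to Soat1 and 5.37 for Hmgcs1 to Sqle. The cause of these moves beyond the change of denominator was not tested. No paired analysis was possible because both libraries are in 1 group. Depth limits Nr1h3 most.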

Other observations

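The 2 quantifications of the same libraries divided several sterol genes among transcripts differently, while the summed gene levels kept nearly the same order. For Mvd, the first assigned 0% to the transcript typed nonsense-mediated decay in both mice, and the second assigned it 100% in replicate 1 and 68.4% in replicate 2. For Apoe, 1 protein-coding transcript of 4 exons held 87.3% and 88.8% in the first and 0% in the second, which gave 92.8% and 91.0% to a 3-exon protein-coding transcript. For Hmgcs1, the 11-exon transcript held 73.3% and 72.8% in the first and 14.1% and 14.8% in the second. For Fdps, the 10-exon transcript held 92.0% and 96.2% in the first and 13.7% and 33.8% in the second. In each of these genes the first quantification placed the mice close together, and it differed from the second by more than the mice differed in either. The isoform shares of these genes were not tested against any other measurement.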
